A study of Rattus norvegicus with 8 samples.

Results

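The 33 genes described here encode complement components, their regulators and their receptors. They were chosen by symbol, and a member was kept when its symbol stood in the table of normalized read counts with a count above 0 in at least 1 library. All 33 symbols met this rule, out of 22798 genes with a read. The rule used no difference between groups, but the list itself was chosen with earlier results of these data known. The study transplanted sciatic nerve segments between outbred female Sprague Dawley (Envigo) rats aged 3 to 6 months as peripheral nerve allografts (PNAs), with donors that were not tissue matched and hosts that were not immunosuppressed. The 3 PEG-fused PNAs (PEG) had received polyethylene glycol at the sutured ends of host and donor nerve. The 3 negative control PNAs (NC) were sutured without polyethylene glycol, and both kinds of graft had been treated with methylene blue. Both were excised 14 days PO (postoperatively), and 2 unoperated sciatic nerves (Unop) from further rats served as the baseline. Each of the 8 libraries came from a different animal. A graft holds donor tissue and cells that entered from the host, and a library of whole nerve does not separate them.

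Complement is a set of proteins, many of them made in the liver and secreted into blood, that act on each other in sequence on a target surface. The classical pathway starts when C1q binds antibody or debris, the lectin pathway when ficolins or collectins bind sugars, and the alternative pathway amplifies deposited C3. All converge on cleavage of C3 and C5, which releases the anaphylatoxins C3a and C5a, marks the surface for uptake by phagocytes and can end in a membrane pore. In peripheral nerve, complement is known for its part in clearing myelin after axons are cut, and in transplantation for its part in rejection. Macrophages make C1q, fibroblasts and endothelium make C1r, C1s and C3, and soluble and membrane-bound regulators keep the cascade from acting on the body's own cells.

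The sequences just before 4 of the genes are shown to give the C1q cluster, of which C1qa and C1qb are neighbours of C1qc, the central component C3, and Vsig4, the member with the largest difference from Unop in PEG-fused PNAs. Each is the 250 bases before the RefSeq start on the rat build GRCr8, read 5′ to 3′ on the gene's strand, at chr5:154419934-154420183, chr5:154407828-154408077, chr9:2201340-2201589 and chrX:65179709-65179958 in turn, all on the minus strand. Capitals mark a match to the GAS motif bound by STAT factors (TTCNNNGAA).
C1qa: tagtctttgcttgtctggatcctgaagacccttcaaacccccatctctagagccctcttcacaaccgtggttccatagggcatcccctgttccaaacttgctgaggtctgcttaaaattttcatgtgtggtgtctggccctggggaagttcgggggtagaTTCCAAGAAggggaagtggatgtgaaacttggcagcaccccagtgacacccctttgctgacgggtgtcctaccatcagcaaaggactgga
C1qb: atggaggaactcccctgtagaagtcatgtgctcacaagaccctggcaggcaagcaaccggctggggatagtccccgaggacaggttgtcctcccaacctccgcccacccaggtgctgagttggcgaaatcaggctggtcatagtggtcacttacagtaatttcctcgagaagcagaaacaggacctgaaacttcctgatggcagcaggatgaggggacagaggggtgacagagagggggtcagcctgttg
C3: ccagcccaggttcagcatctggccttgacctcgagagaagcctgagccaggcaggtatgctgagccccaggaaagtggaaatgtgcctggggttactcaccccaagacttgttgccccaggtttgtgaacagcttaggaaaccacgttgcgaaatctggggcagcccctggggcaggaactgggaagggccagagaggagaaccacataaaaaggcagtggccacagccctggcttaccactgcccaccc
Vsig4: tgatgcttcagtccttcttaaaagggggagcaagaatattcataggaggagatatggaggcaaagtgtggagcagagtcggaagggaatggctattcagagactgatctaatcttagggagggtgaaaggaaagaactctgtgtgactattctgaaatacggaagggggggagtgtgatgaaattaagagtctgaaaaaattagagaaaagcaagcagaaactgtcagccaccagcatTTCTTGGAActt
The match lay from 90 to 82 bases before the start in C1qa and from 12 to 4 bases before it in Vsig4. Of the 33 members, 21 had an entry in the RefSeq promoter table, and 3 of these (C1qa, C5ar2 and Vsig4) held a GAS match on either strand, beside 7.67% of all 33469 windows of this length. The ISRE motif of interferon-responsive genes stood in 0 member windows and 3.41% of all, and the NF-kB motif in 0 member windows and 3.54% of all. A match describes the letters of the window and is not evidence that a factor binds there.

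The libraries held 32472925 to 39959620 reads assigned to genes, and values are counts divided by a size factor of the library. A level of 1 gene can therefore be compared between libraries, while levels of different genes also depend on transcript length and were not ranked. Fold changes were computed with limma on log2(normalized read count + 1) for the 16478 genes that reached 10 normalized counts in 2 or more libraries, a filter that all 33 members passed. A gene is said to rise or fall where its adjusted p (limma, Benjamini-Hochberg over the tested genes) was under 0.05. NC 1 and NC 3 stood apart in skeletal muscle markers, whose summed level was 345240 and 127767 in these libraries and between 1984 and 18459 in the other 6. Myelin and Schwann cell markers were highest in Unop, with summed levels of 2031830 and 2412500, against 17847 to 63419 in the 6 grafts.

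Complement transcripts made up a larger share of the NC libraries than of the others. Together the 33 members held between 0.984% and 1.10% of all normalized counts in NC PNAs, between 0.634% and 0.767% in PEG-fused PNAs, and 0.433% and 0.332% in the Unop nerves. The 3 groups did not overlap in this share. As a sum, it mostly reflects the members with the highest counts, such as the C1q chains and Serping1, and does not describe each member. In PEG-fused against NC PNAs, 11 members fell, 1 rose and 21 did not pass the test. The fall of 11 (33.3% of members) stands beside 13.9% of all tested genes that fell, and the rise of 1 beside 15.0% that rose; 28.9% of tested genes were called in either direction. The median log2 fold change of the members was -0.31 and that of all tested genes was 0.00. Of the 11, 6 (C1qc, C2, C3, C4a, C4b and Cfb) also fell by more than 1 on the log2 scale, as 7.14% of tested genes did. C4a, counted in both numbers, was among the tested genes only through its NC libraries, where it was higher. The plot of all members by role shows the lower values among the classical components, C3 and Cfb.

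**Figure D1:**
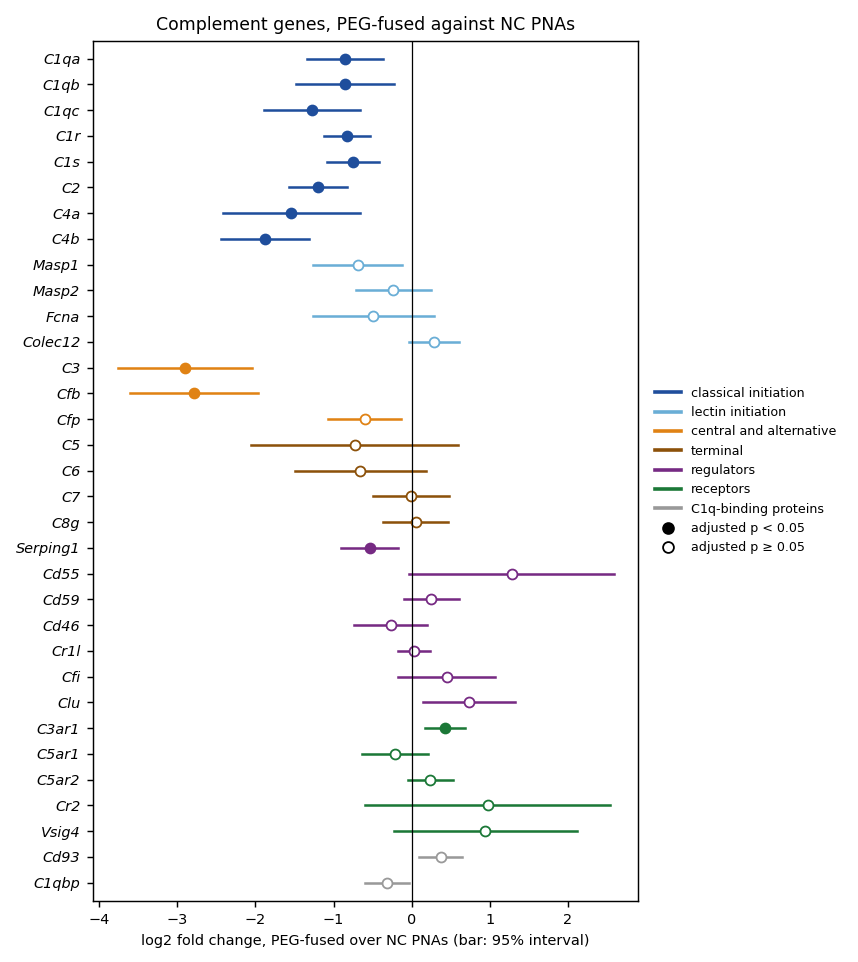
Log2 fold change of each of the 33 complement genes in PEG-fused over NC PNAs (horizontal axis) with its 95% interval from limma, ordered and coloured by role. Filled circles have an adjusted p under 0.05: all 8 classical components, C3, Cfb and Serping1 lie to the left of 0, and C3ar1 to the right.

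All 8 components grouped here as classical fell in PEG-fused against NC PNAs, beside 13.9% of all tested genes. C4a, 1 of the 8, passed the filter on low counts only with the NC libraries, where it was higher. With a filter of 50 counts C4a was not tested, and the other 7 fell. The log2 fold changes of the 8 lay between -1.88 and -0.75, with a median of -1.02. The grouping by role was made with earlier results of these data known, and C2 and C4 also act in the lectin pathway. C1q is built from A, B and C chains encoded by C1qa, C1qb and C1qc, which lie next to each other in RefSeq. C1qa held 28394, 21556 and 22352 normalized read counts in PEG 1 to PEG 3, 40456, 42958 and 46376 in NC 1 to NC 3, and 6867 and 3808 in Unop 1 and Unop 2. C1qb held 22722, 15721 and 20589 in PEG, 32559, 34954 and 38039 in NC, and 6473 and 2875 in Unop. C1qc held 26176, 15712 and 18908 in PEG, 45457, 48033 and 50454 in NC, and 9295 and 4601 in Unop. For every chain, all NC libraries lay above all PEG libraries and all PEG libraries above both nerves, with PEG 1 the highest PEG library. The log2 fold changes of PEG against NC were -0.85 ± 0.21 (SE) for C1qa, -0.85 ± 0.27 for C1qb and -1.27 ± 0.27 for C1qc, with adjusted p of 0.0191, 0.0488 and 0.00968 (limma). Against Unop, the chains rose by 2.23 (C1qa), 2.17 (C1qb) and 1.60 (C1qc) on the log2 scale in PEG-fused PNAs, and by 3.08, 3.02 and 2.87 in NC PNAs. C1qb missed the threshold without any 1 of the 6 grafts (adjusted p between 0.0685 and 0.160), and C1qa missed it without PEG 2 (0.0723), PEG 3 (0.0650) or NC 3 (0.0570).

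C1r and C1s, neighbouring genes for the proteases that C1q activates, stood closer to Unop in PEG-fused PNAs than the C1q chains did. C1r held 14748, 14126 and 12422 normalized counts in PEG, 21863, 28099 and 23469 in NC, and 14071 and 11853 in Unop. C1s held 29441, 24887 and 26610 in PEG, 42393, 50268 and 43219 in NC, and 23406 and 17283 in Unop. The NC libraries were the highest for both genes, and the PEG libraries overlapped the Unop range for C1r but lay just above it for C1s. C1r fell by 0.83 ± 0.13 and C1s fell by 0.75 ± 0.15 in PEG against NC on the log2 scale (limma, adjusted p = 0.00297 and 0.00728). In NC against Unop they rose by 0.91 (C1r) and 1.17 (C1s). In PEG against Unop the differences were 0.09 for C1r, with a 95% interval of -0.24 to 0.42, and 0.42 for C1s, with an interval of 0.05 to 0.79 (adjusted p = 0.624 and 0.0539). In PEG against Unop, C1s passed with DESeq2 (adjusted p = 0.0322), and by limma with TMM rescaling (0.0427), a filter of 50 counts (0.0498) and a robust fit (0.0494). Without Unop 1 its difference was 0.64.

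C2, which supplies the protease of the classical C3 convertase, held 3328, 2931 and 2578 normalized counts in PEG, 6533, 6366 and 7242 in NC, and 899 and 587 in Unop. The groups did not overlap, with NC highest and Unop lowest. C2 fell by 1.19 ± 0.16 in PEG against NC (limma, adjusted p = 0.00179), and rose in PEG and NC against Unop by 2.01 and 3.20. C4b, a gene for C4, the protein that anchors this convertase to a surface, held 2191, 1190 and 1750 in PEG, 5970, 5346 and 7111 in NC, and 4319 and 2690 in Unop. Here all PEG libraries lay below both Unop nerves as well as below NC. C4b fell by 1.88 ± 0.25 in PEG against NC (adjusted p = 0.00162) and by 1.04 ± 0.28 in PEG against Unop (0.0119), the latter call being lost without Unop 1 (log2 fold change -0.70, adjusted p = 0.108). In NC against Unop it rose by 0.84 (adjusted p = 0.0270), a call lost without NC 3 (0.0770) or Unop 2, with values of 0.50 and 0.217 without the latter.

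C4a held 5.56, 5.61 and 7.50 normalized counts in PEG, 12.5, 25.8 and 24.1 in NC, and 12.9 and 8.76 in Unop, from no more than 25 reads in any library. It fell by 1.54 ± 0.38 in PEG against NC (limma, adjusted p = 0.0190), and the call was lost without PEG 1, PEG 2, NC 2 or NC 3 (adjusted p between 0.0575 and 0.0642). Without the NC libraries C4a would not have passed the filter on low counts. C4 genes are near-identical copies whose reads counting can split, and RefSeq gives C4b as an older name of C4a, so the counts of C4a and C4b are uncertain. A further identifier described as C4-like (LOC103689965) held 674 to 812 normalized counts in PEG, 1639 to 2062 in NC and 628 to 752 in Unop. For each of the 3 C4 identifiers, the highest library was an NC library. All PEG libraries lay below both Unop nerves for C4b and C4a, but overlapped the Unop range for LOC103689965.

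**Figure D2:**
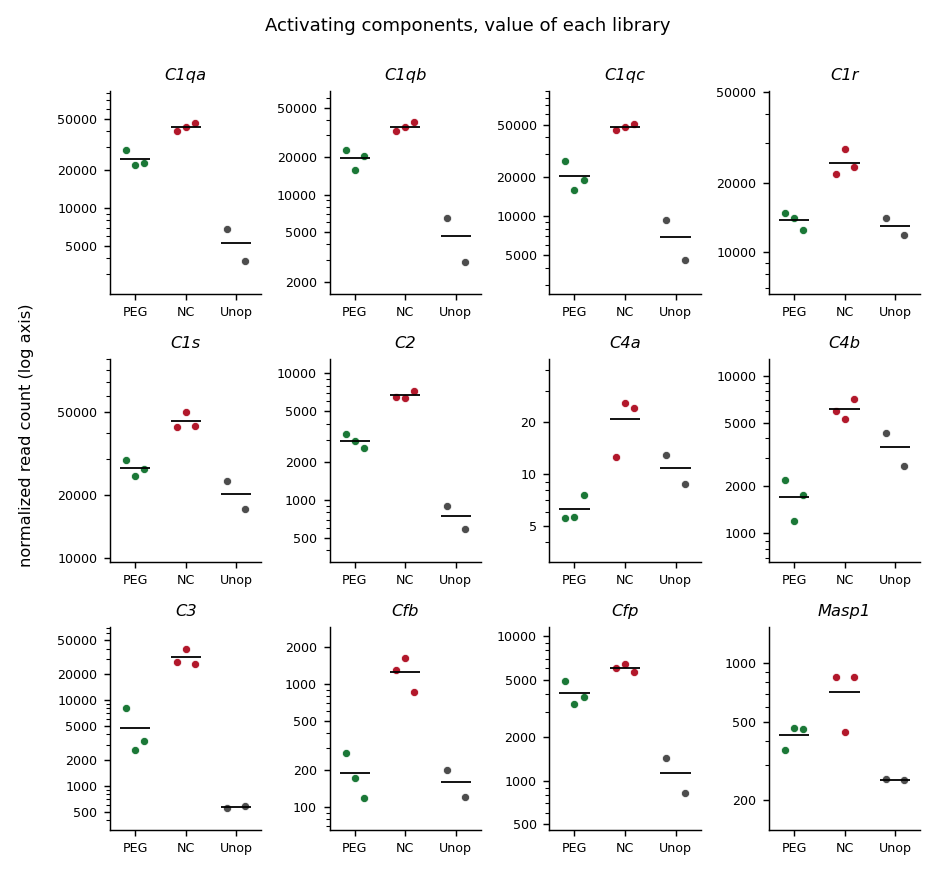
Normalized read count of 12 activating complement genes (vertical axis, log scale with its own range in each panel) in each PEG, NC and Unop library, with 1 point per library and a bar at the group mean. The NC libraries lie above all PEG libraries in every panel except that of Masp1, where NC 2 lies among the PEG libraries.

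The largest differences between the grafts were those of C3 and Cfb. C3, the component on which all pathways converge, held 8151, 2623 and 3306 normalized counts in PEG, 28111, 39855 and 26344 in NC, and 554 and 589 in Unop. The lowest NC library lay above the highest PEG library, PEG 1, which itself lay well above PEG 2 and PEG 3, and both nerves lay below every graft. C3 fell by 2.90 ± 0.38 on the log2 scale in PEG against NC (limma, adjusted p = 0.00150), a mean level 6.70 times as high in NC. It rose by 2.85 in PEG and by 5.76 in NC against Unop, the latter the largest rise of any member in NC PNAs. Cfb, the factor B protease of the alternative C3 convertase and a RefSeq neighbour of C2, held 276, 172 and 117 in PEG, 1305, 1634 and 869 in NC, and 200 and 120 in Unop. Its PEG libraries spread around both Unop values while all NC libraries lay far above them. Cfb fell by 2.79 ± 0.36 in PEG against NC (adjusted p = 0.00145) and rose by 2.98 in NC against Unop. In PEG against Unop it differed by 0.19, with a 95% interval of -0.72 to 1.11 (adjusted p = 0.696). Another identifier with the symbol Cfb had no read.

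Cfp, or properdin, which stabilizes the alternative convertase, held 4892, 3431 and 3794 normalized counts in PEG, 6016, 6471 and 5689 in NC, and 1432 and 827 in Unop. The NC libraries were all higher than the PEG libraries, with a log2 fold change of -0.60 ± 0.20 that missed the threshold (limma, adjusted p = 0.0590), though DESeq2 gave 0.0258. Cfp rose by 1.87 in PEG and 2.47 in NC against Unop.

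Of the 4 members grouped under lectin initiation, 0 passed in PEG against NC by limma, with 1 at an unadjusted p under 0.05, and DESeq2 called Masp1. Fcnb, a ficolin gene that is not a member and is described below, fell by 3.99 (limma, adjusted p = 0.00172). Masp1, a protease activated by ficolins and collectins, held 360, 465 and 462 normalized counts in PEG, 849, 448 and 856 in NC, and 254 and 253 in Unop. NC 2 lay among the PEG libraries, and the log2 fold change of -0.69 ± 0.25 (adjusted p = 0.0699) passed without NC 2 (adjusted p = 0.00388). NC 1 and NC 3, which held more Masp1, are also the libraries that stood apart in skeletal muscle markers. The part of muscle in the Masp1 level was not tested. Masp1 rose in NC against Unop by 1.44 and in PEG against Unop by 0.75, where the adjusted p of 0.0471 was between 0.113 and 0.142 without PEG 2, PEG 3, Unop 1 or Unop 2. Masp2, the protease that cleaves C2 and C4, held 255, 285 and 290 in PEG, 324, 344 and 308 in NC, and 210 and 381 in Unop, so that both grafts lay within the spread of the nerves.

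Fcna, a ficolin that binds sugars, held 2640, 1756 and 2218 normalized counts in PEG, 2688, 2888 and 3683 in NC, and 2399 and 867 in Unop. The nerves were far apart, and the rise of 1.08 in NC against Unop (limma, adjusted p = 0.0331) was lost without NC 2, NC 3 or Unop 2, with a value of 0.35 without Unop 2. Colec12, a collectin and scavenger receptor, held 4118, 4557 and 4710 in PEG, 3215, 3534 and 4338 in NC, and 3472 and 2662 in Unop. It rose by 0.55 ± 0.16 in PEG against Unop (adjusted p = 0.0153), without Unop 2 by 0.36 with an adjusted p of 0.124, and was the sole member called in PEG but not in NC against Unop. The log2 difference between the grafts for Colec12 was 0.28, with a 95% interval of -0.04 to 0.60.

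The 4 terminal components, which build the membrane pore, gave 0 calls in PEG against NC by limma and 0 at an unadjusted p under 0.05, as well as 0 by DESeq2 and edgeR. C5 held between 1.25 and 13.5 normalized counts in all 8 libraries, too few to show a difference: the 95% interval of PEG against NC was -2.05 to 0.60. C6 held 3586, 3762 and 1519 in PEG, 3576, 3939 and 5703 in NC, and 2224 and 1331 in Unop, where PEG 3 lay in the Unop range and NC 3 above all others. Its rise of 1.33 in NC against Unop (adjusted p = 0.0201) was lost without NC 3 (0.0607) or Unop 2 (0.153). C7, close to C6 in RefSeq, held 7535, 8550 and 9513 in PEG, 9682, 9095 and 7074 in NC, and 7301 and 4136 in Unop. The log2 difference between the grafts was -0.01, with an interval of -0.50 to 0.48. The rise of C7 in NC against Unop was 0.64 (adjusted p = 0.0435), which missed the threshold without NC 1 (0.102), NC 2 (0.0910) or Unop 2 (0.372). In PEG against Unop, C7 differed by 0.63 with an adjusted p of 0.0501 (limma), and DESeq2 gave 0.0402. All PEG libraries of C7 lay above both nerves. C8g, a small chain of C8, held between 136 and 184 in all 8 libraries.

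Of the 5 receptors, all rose against Unop in both kinds of graft. In PEG against NC, C3ar1 alone passed, 1 of 5 beside 15.0% of tested genes that rose, and the log2 fold changes ran from -0.22 to 0.97. C3ar1, the receptor of C3a, held 1249, 1451 and 1209 normalized counts in PEG, 994, 883 and 1027 in NC, and 164 and 149 in Unop. All PEG libraries lay above all NC libraries, which is the opposite order to that of C3. C3ar1 rose by 0.43 ± 0.11 in PEG against NC (limma, adjusted p = 0.0235), a call lost without PEG 1 (0.0550), PEG 2 (0.0944) or NC 2 (0.0683). It was the only member with a call of higher in all 3 comparisons, with rises of 3.05 in PEG and 2.62 in NC against Unop.

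C5ar1, the signalling receptor of C5a, held 3312, 3324 and 3703 normalized counts in PEG, 3256, 4326 and 4534 in NC, and 647 and 405 in Unop. C5ar2, the other receptor of C5a and its RefSeq neighbour, held 451, 455 and 472 in PEG, 388, 388 and 394 in NC, and 54.7 and 67.5 in Unop. The grafts overlapped for C5ar1 and did not for C5ar2, but neither difference passed the test, at -0.22 (95% interval -0.64 to 0.21) and 0.24 (-0.05 to 0.53). Against Unop, C5ar1 rose by 2.75 in PEG and 2.96 in NC, and C5ar2 rose by 2.90 and 2.66.

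Vsig4, a receptor of tissue macrophages for C3 fragments, held 321, 164 and 253 normalized counts in PEG, 154, 80.7 and 149 in NC, and 7.51 and 1.25 in Unop, the latter from 7 reads and 1 read. Every PEG library lay above every NC library, with PEG 2 closest to them. The log2 fold change of 0.94 ± 0.51 did not pass (limma, adjusted p = 0.199), though DESeq2 gave 0.0362. Against Unop, Vsig4 rose by 5.76 ± 0.57 in PEG and 4.82 ± 0.57 in NC, between 4.80 and 6.72 in PEG and between 3.86 and 5.78 in NC without Unop 2 or Unop 1. Cr2, which binds C3d on B cells and follicular dendritic cells, held 129, 163 and 182 in PEG, 67.9, 128 and 56.9 in NC, and 17.2 and 1.25 in Unop. NC 2 lay just below PEG 1, and the difference between the grafts was 0.97 with a 95% interval of -0.60 to 2.54. Cr2 rose by 4.62 in PEG and 3.65 in NC against Unop, and by 3.11 and 2.14 without Unop 2, or 6.13 and 5.15 without Unop 1. B and plasma cell markers had the reverse order between the grafts, with 4 of 4 measured markers lower in PEG than in NC. Their summed levels were 101.9 to 192.8 in PEG and 528 to 928 in NC, and were lowest in Unop (50.4 and 47.5), as Cr2 was. Of 2 markers of follicular dendritic cells, Fdcsp had no read in any library and Cxcl13 was lower in PEG than in NC. The part of these cells in the Cr2 levels was not tested.

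Cd93 and C1qbp, which have been named as C1q receptors, gave 0 calls by limma in PEG against NC, with both at an unadjusted p under 0.05, and DESeq2 and edgeR called 1 and 0. Cd93, a surface protein of endothelium and myeloid cells, held 6934, 5599 and 5992 normalized counts in PEG, 5130, 4047 and 5186 in NC, and 2697 and 2688 in Unop. The groups did not overlap, and the log2 fold change was 0.37 ± 0.12 (adjusted p = 0.0512). Cd93 rose by 1.19 in PEG and 0.82 in NC against Unop. C1qbp, largely a mitochondrial protein, held 1853, 1762 and 1704 in PEG, 2365, 2333 and 1939 in NC, and 1887 and 1426 in Unop. All PEG libraries lay below NC and within the Unop range, and the rise of 0.43 in NC against Unop (adjusted p = 0.0259) was lost without NC 1 (0.0639), NC 2 (0.0636) or Unop 2 (0.201).

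**Figure D3:**
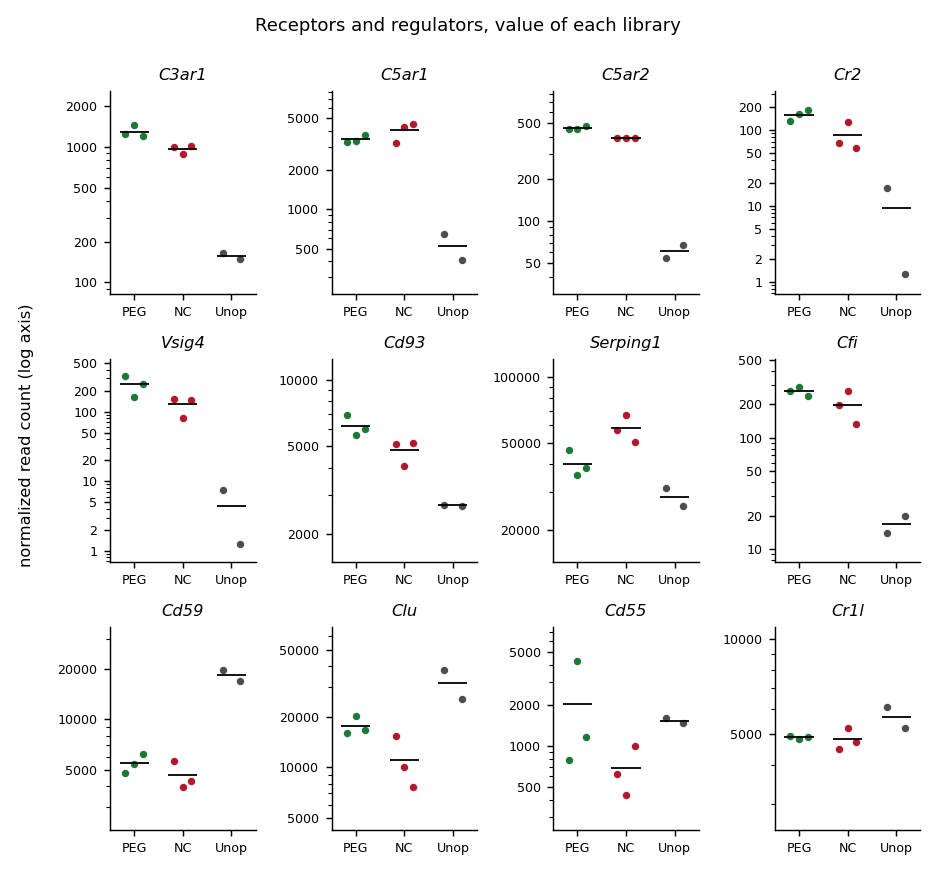
Normalized read count of 6 receptors and C1q-binding proteins and of 6 regulators (vertical axis, log scale with its own range in each panel) in each PEG, NC and Unop library, with 1 point per library and a bar at the group mean. The receptors are lowest in both Unop nerves, Cd59 and Clu are highest there, and Cd55 is high in the single library PEG 2.

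Of the 7 regulators, Serping1 fell in PEG against NC and 6 did not pass. Serping1, the C1 inhibitor that removes C1r and C1s from C1q, held 46331, 35625 and 38374 normalized counts in PEG, 57398, 67079 and 50412 in NC, and 31003 and 25889 in Unop. Its groups did not overlap, in the order NC, PEG, Unop that the C1q chains also had. Serping1 fell by 0.54 ± 0.16 in PEG against NC (limma, adjusted p = 0.0376), a call lost without PEG 2 (0.131), PEG 3 (0.115), NC 1 (0.0681) or NC 2 (0.110). Against Unop it rose by 1.03 in NC and by 0.49 in PEG, where the adjusted p of 0.0433 was between 0.0528 and 0.215 without PEG 1, PEG 3, Unop 1 or Unop 2.

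Cfi, the protease that inactivates C3b and C4b with the help of cofactors, held 262, 284 and 238 normalized counts in PEG, 198, 265 and 133 in NC, and 14.0 and 20.0 in Unop. It rose by 3.89 in PEG and 3.44 in NC against Unop, the largest rise of a regulator in each, and the grafts overlapped, with a difference of 0.45 and a 95% interval of -0.17 to 1.07. The cofactor and decay accelerating proteins of the cell surface had no such rise. Cd55, which takes convertases apart, held 786, 4244 and 1163 in PEG, 625, 434 and 1001 in NC, and 1615 and 1473 in Unop. PEG 2 alone stood above the nerves, and the log2 fold change of PEG against NC, 1.28 ± 0.57, did not pass (limma, adjusted p = 0.128). Cd46, a cofactor for Cfi, held between 57.0 and 100 in all libraries, with PEG lowest. Cr1l, the rodent Crry that protects cells from C3 deposition and a neighbour of Cd46 and Cr2, held between 4486 and 6076 in all libraries and differed by 0.03 between the grafts, with an interval of -0.18 to 0.23.

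Cd59, which blocks the membrane pore, and Clu, the secreted chaperone clusterin that also binds pore proteins, were the 2 members that fell in both grafts against Unop. Cd59 held 4790, 5448 and 6228 normalized counts in PEG, 5660, 3964 and 4290 in NC, and 19823 and 16966 in Unop. Both nerves lay far above all grafts, and Cd59 fell by 1.75 ± 0.17 in PEG and fell by 2.00 ± 0.17 in NC (limma, adjusted p = 6.2e-05 and 2.0e-05). Clu held 16068, 20250 and 16678 in PEG, 15403, 10058 and 7649 in NC, and 37922 and 25369 in Unop. Its groups did not overlap, with NC lowest, but NC 1 lay close to PEG. Clu fell by 0.82 ± 0.29 in PEG (adjusted p = 0.0378) and fell by 1.55 ± 0.29 in NC against Unop, the former call being lost without PEG 1 (0.0959), PEG 3 (0.0904) or Unop 1 (0.250). In PEG against NC the difference in Clu was 0.73 ± 0.26 (adjusted p = 0.0655), and 1.00 with an adjusted p of 0.0119 without NC 1. Schwann cell markers also stood highest in Unop, with 5 of 5 lower in each graft group, and their part in the lower Cd59 and Clu was not tested.

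Set against unoperated nerve, 16 members rose and 3 fell in PEG-fused PNAs, where 29.1% of tested genes rose and 28.6% fell (57.7% in all). In NC PNAs, 23 rose and 2 fell, where 32.2% rose and 32.3% fell (64.5% in all). The median log2 fold change of the members was 0.63 in PEG and 1.17 in NC, beside 0.01 and 0.02 over all tested genes. These comparisons share the same 2 nerves, so they are not independent of each other. Of the members that rose in both, C1qa, C1qb, C1qc, C2, C3 and Serping1 were lower in PEG than in NC, C3ar1 was higher, and Cfi, Cfp, C5ar1, C5ar2, Vsig4, Masp1, Cr2 and Cd93 did not pass between the grafts. C1r, C1s, Cfb and C4b passed as higher than Unop in NC and not in PEG, where C4b fell, and the difference between the grafts passed for all 4. Of these, C1s narrowly missed the threshold in PEG (limma, adjusted p = 0.0539) and passed there with DESeq2 (0.0322). C6, C7, C1qbp and Fcna also passed as higher in NC and not in PEG, but their difference between the grafts did not pass. C7 differed from Unop by 0.63 in PEG (limma, adjusted p = 0.0501) and by 0.64 in NC (0.0435), on either side of the threshold. C5, C8g, Cd55, Cd46, Masp2 and Cr1l passed in none of the 3 comparisons.

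**Figure D4:**
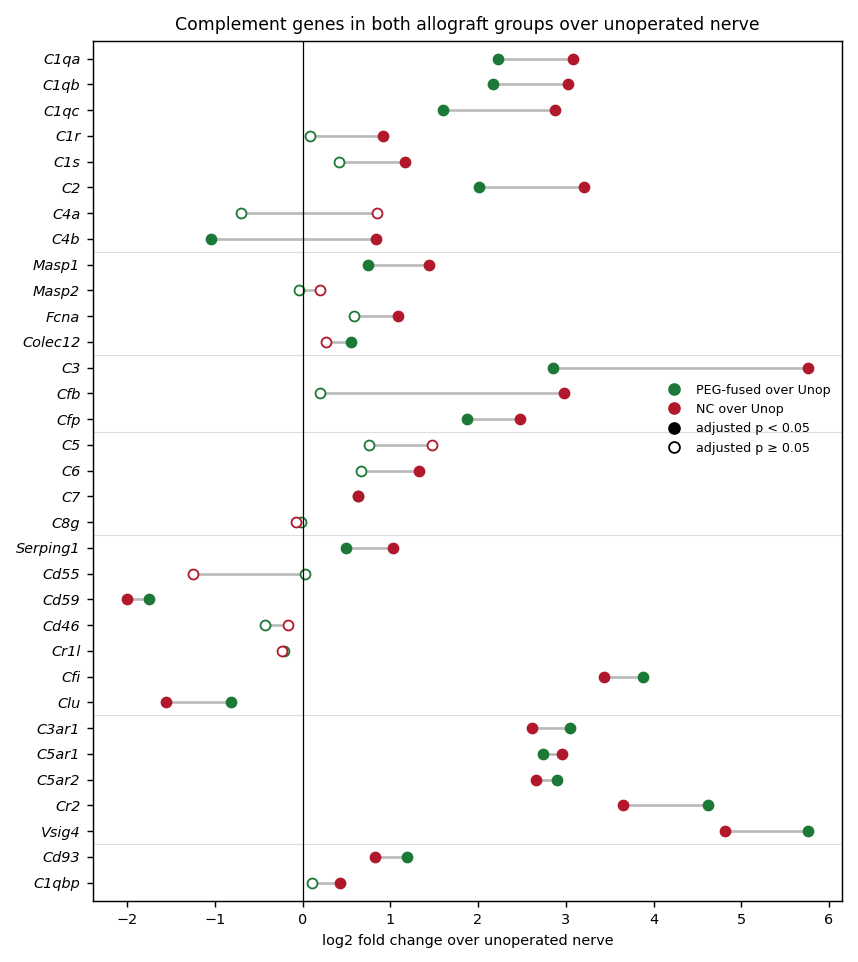
Log2 fold change over unoperated nerve of each complement gene (horizontal axis) in PEG-fused (green) and NC PNAs (red), joined by a line and ordered by role, with filled circles for an adjusted p under 0.05 (limma); the points of C7 coincide. The classical components, C3 and Cfb are further right in NC, from 0.84 to 5.76, while C3ar1, C5ar2, Cr2 and Vsig4 are further right in PEG.

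Counted by overlap of libraries instead of by the test, 6 members lay higher and 16 lower in all PEG than in all NC libraries, and 11 overlapped. Over all tested genes, 25.6% lay higher and 23.3% lower without overlap. In addition to the 12 members called, Cfp, Cd46, Masp2, C1qbp and Fcna lay lower without overlap, and C5ar2, Clu, Vsig4, Cr2 and Cd93 higher.

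Cell type markers moved between the same groups, and a lower level in whole tissue cannot tell apart fewer cells of a type and less RNA per cell. Of 6 macrophage markers, 4 were lower in PEG than in NC, with summed levels of 52385 to 60927 in PEG, 69353 to 79035 in NC, and 12295 and 15954 in Unop. The other 2 did not pass: Mrc1 differed by -0.09 on the log2 scale, and Cd68 by 0.36, with 20030 to 22451 normalized counts in PEG above 14060 to 18968 in NC. All 5 T cell markers were lower in PEG, with summed levels of 706 to 2332 against 11287 to 22695. Of 5 fibroblast markers 3 were higher in PEG, with sums of 254497 to 374493 against 144613 to 209137, as were 2 of 5 Schwann cell markers. No macrophage, T cell, fibroblast or Schwann cell marker was at 0 in all libraries. Hepatocyte markers summed to between 5.56 and 19.7 in the grafts and to 198 and 499 in Unop. This contrast was that of Alb, with 488 and 190 normalized counts in Unop and no more than 1.93 in any graft. Apoa1 went the other way, with 4.29 and 5.003 in Unop and 5.56 to 15.01 in the grafts, and did not pass against Unop. Ttr held no more than 6.44 in any library. The part of macrophages, T cells, fibroblasts and hepatocytes in the complement differences was not tested.

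A second list held 28 further complement genes, of which 27 were in the table, 24 had a read and 18 passed the filter. Of the 18, 3 fell in PEG against NC, and 7 fell in PEG and 7 in NC against Unop, beside the shares of tested genes that fell given above. Others rose in both grafts against Unop, among them Fcnb, Itgam, Itgax, Itgb2, Ptx3 and Calr. Fcnb, a ficolin of myeloid cells, held 1325, 261 and 671 normalized counts in PEG, 9642, 12756 and 7573 in NC, and 59.0 and 30.0 in Unop. The 3 groups were far apart, and Fcnb fell by 3.99 ± 0.54 in PEG against NC (limma, adjusted p = 0.00172), more than any member. Against Unop it rose by 3.83 in PEG and 7.82 in NC.

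C1rl, a C1r-like protease gene beside C1r in RefSeq, fell by 0.80 in PEG against NC (adjusted p = 0.0115) from 379 to 532 normalized counts in NC to 238 to 288 in PEG, beside 205 and 270 in Unop.

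Cfd, factor D, which cleaves factor B and is also called adipsin from its high level in fat cells, held 5691, 3744 and 4297 normalized counts in PEG, 7091, 8247 and 9328 in NC, and 63144 and 43870 in Unop. It fell in PEG against NC by 0.86 (limma, adjusted p = 0.0133), and against Unop it fell by 3.55 in PEG and fell by 2.69 in NC. All 3 adipocyte markers also fell in both grafts against Unop, with summed levels of 23097 and 44659 in Unop and 253 to 1250 in the grafts, and 2 of 3 were lower in PEG than in NC. Their part in the Cfd level was not tested.

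The integrin chains Itgam, Itgax and Itgb2, which form the complement receptors of phagocytes for iC3b, did not pass between the grafts. Itgam held 3899, 5235 and 5635 normalized counts in PEG, 4886, 7398 and 6862 in NC, and 401 and 285 in Unop. Against Unop, Itgam rose by 3.84 and 4.21, Itgax by 3.35 and 3.62 and Itgb2 by 4.18 and 4.14 in PEG and NC. Ptx3, a pentraxin that binds C1q, rose by 3.34 in PEG and 4.17 in NC against Unop, and the difference between the grafts, -0.83, did not pass (adjusted p = 0.113). Calr, calreticulin, a C1q-binding chaperone, rose by 0.62 in PEG and 0.49 in NC against Unop.

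Vtn, vitronectin, and the membrane regulators Susd4 and Csmd1 fell in both grafts against Unop. Vtn held 1145, 716 and 731 normalized counts in PEG, 1032, 485 and 915 in NC, and 4159 and 3146 in Unop, and it fell by 2.10 in PEG and fell by 2.23 in NC. Susd4 fell by 2.33 in PEG and fell by 2.70 in NC. Csmd1 fell by 4.93 in PEG and fell by 4.73 in NC, from 215 and 296 normalized counts in Unop to between 5.38 and 10.7 in the grafts. C4bpa, a chain of the soluble C4b-binding protein, had no read in PEG and 21.5 and 65.0 normalized counts in Unop, at least 15.4-fold higher in Unop at a floor of 3 reads per library. The nerves differed, and this bound was 7.67-fold from Unop 1 and 23.2-fold from Unop 2. C9, the pore-forming component, held 5.56, 0.935 and 10.3 normalized counts in PEG, from 6, 1 and 11 reads, 8.94, 10.8 and 18.3 in NC, and had no read in Unop. At this floor it was at least 3.64-fold higher in NC, and at least 2.82-fold without NC 3. Without PEG 3 the PEG mean of C9 lay under the floor, so no bound is given for PEG. No read of C8a, Mbl1 or Mbl2 was seen in any library, which allows up to 3 reads per library and does not show that they are absent.

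**Figure D5:**
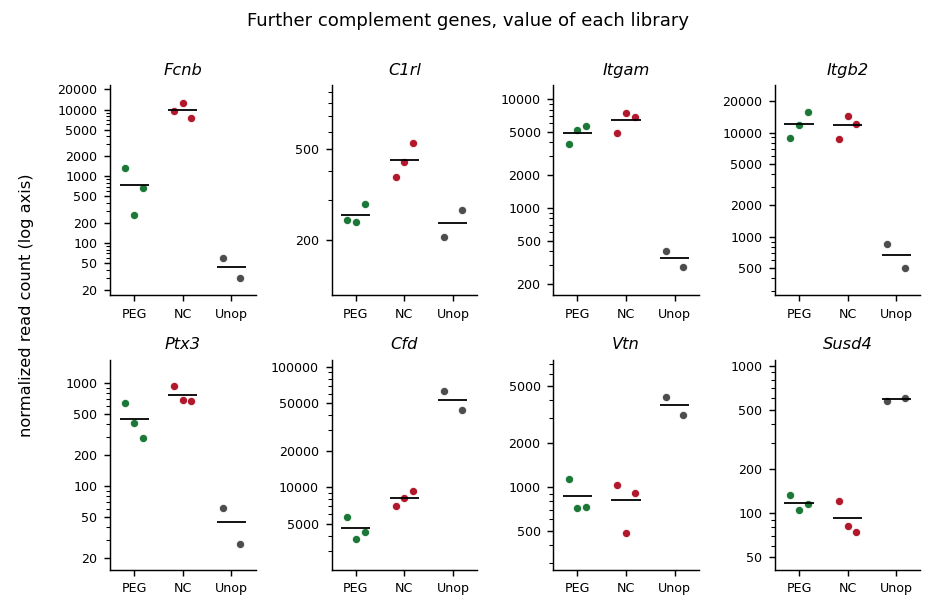
Normalized read count of 8 further complement genes (vertical axis, log scale with its own range in each panel) in each PEG, NC and Unop library, with 1 point per library and a bar at the group mean. Fcnb and C1rl are highest in NC, Itgam, Itgb2 and Ptx3 are lowest in Unop, and Cfd, Vtn and Susd4 are highest there.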

How the data were processed

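Poly-A RNA of 8 libraries (TruSeq Stranded mRNA, paired-end reads) was aligned by the authors with TopHat2 to Rnor 6.0 and counted per gene with HTSeq, whose strand setting is not given in the sources used here. The deposited signal values are read counts that the authors divided by DESeq2 median-of-ratios size factors, recovered here as 0.800 to 1.12, with 100% of values whole reads within 0.001. Deposited fold changes, Wald scores and p-values of the authors' own comparisons were not used.

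Groups and replicate numbers came from the sample titles. Limma 3.58.1 (trend, R 4.3.3) was fitted to log2(normalized count + 1) of all 8 libraries and 16478 genes with at least 10 counts in at least 2 libraries, which understates changes of low genes. Benjamini-Hochberg adjustment ran over these genes. The spread is shared by the groups, on which the 2 Unop nerves rest. Intervals are 95%. Alternatives were DESeq2 1.42.0 and edgeR 4.0.16 (quasi-likelihood, TMM factors) on the recovered reads, which called 5405 and 4977 genes in PEG against NC beside 4763 with limma, TMM rescaling, a pseudocount of 8, a replicate block, a robust fit, a filter of 50 counts or none, a fit of the 2 groups alone, the DEG rule of the study and each library left out. The methods were tested on simulated data. A floor of 3 reads per library bounds folds against 0 and covers counting error only.

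Every member is named, and so are further complement genes of a second list where measured, apart from 1 that is not reported here. Of that list, C4bpb, C8b, Colec10, Colec11, Crp, Apcs, Cpn1, Cpn2, Cpb2 and Csmd2 were counted only, and Csmd3 was not analysed here. Members, lists, roles and markers were chosen with earlier results of these data known. Promoters and gene order came from RefSeq (GRCr8), another build than that of the counts, and motifs were searched on both strands.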

Additional observations from a re-analysis of the deposited data

How the results depend on the processing

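Of 12 members called in PEG-fused against NC PNAs, 7 (C1qc, C1r, C1s, C2, C3, C4b and Cfb) kept their call in all 15 alternative fits. Against Unop, 14 of 19 in PEG and 20 of 25 in NC kept it over 14 fits. Every called member kept its direction. The DEG rule of the study is not among these fits. Of the kept calls, those of C1r (-0.83) and C1s (-0.75) in PEG against NC were lost under that rule. So were those of C1r (0.91) and Cd93 (0.82) in NC against Unop. The 1 member higher in PEG against NC became 4 with DESeq2, 2 with a filter of 50 counts, 0 with the DEG rule and between 0 and 2 with a library left out. The 11 lower became 13 with DESeq2 and with a fit of only these 2 groups, 6 with the DEG rule and between 7 and 10 with a library left out, 7 without PEG 2. The fall of C1qb was also lost with edgeR (adjusted p = 0.0566), TMM rescaling (0.0519), no filter (0.0590) and the robust fit (0.0553). Correlations of deviations were 0.108, 0.109 and -0.0502 between same-numbered PEG and NC libraries, so the numbers were not taken to pair them, and 0.136 to 0.157 in the 4 same-numbered pairs with Unop, where each group shares only 2 numbers. A block by replicate number gave 1 higher and 11 lower, 15 and 2 in PEG against Unop, and 22 and 2 in NC against Unop. Between the grafts C3ar1 (adjusted p = 0.0542) and Serping1 (0.0569) lost their calls with this block while Cd93 (0.0472) and Cfp (0.0454) gained one, and against Unop the calls of Clu (0.0710) and Masp1 (0.110) in PEG and of C7 (0.0678) in NC were lost. The bounds of C4bpa and C9 with a library left out were added after seeing the data. Signs changed only among members not called. In PEG against NC, the log2 fold change of C7 was 0.00496 with TMM rescaling, and with a library left out it ran from -0.14 to 0.083 for C7, -0.040 to 0.18 for C8g and -0.024 to 0.085 for Cr1l. In PEG against Unop, it was 0.032 for C8g and -0.022 for Cd55 with the replicate block, and with a library left out it ran from -0.035 to 0.21 for C1r, -0.21 to 1.71 for C5, -0.19 to 0.15 for C8g, -0.17 to 0.56 for Cfb, -0.69 to 0.53 for Cd55, -0.46 to 0.39 for Masp2, -0.090 to 0.31 for C1qbp and -0.14 to 1.33 for Fcna. In NC against Unop it ran from -0.24 to 0.096 for C8g, -0.43 to 0.11 for Cd46 and -0.23 to 0.62 for Masp2 with a library left out. The cause was not tested. Depth limited C4a and C5, and Vsig4, Cr2 and C4b against Unop rest on 2 nerves that differ from each other.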
